A study of Mus musculus with 12 samples.

Results

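Genes encoded by the mitochondrial genome were taken from the deposited gene tables as every gene whose symbol begins with mt-, after the Ensembl identifiers had been paired with GENCODE M21 (GRCm38) symbols. This gave 37 of 55401 genes, and each of the 37 matched the annotation with its version. They are 13 protein-coding genes, 2 rRNA genes and 22 tRNA genes, of which 28 lie on the plus strand and 9 (*mt-Nd6* and 8 tRNA genes) on the minus strand. Whole kidneys came from male C57BL6 mice aged 8 weeks, with no engineered allele named in the labels, and 1 RNA-Seq library was made per mouse. In 6 mice a single intraperitoneal dose of SK-124 (40 mg/kg), an inhibitor of the salt-inducible kinases SIK2 and SIK3, had been given, and the other 6 mice had received vehicle alone, which was 15% 2-hydroxypropyl-beta-cyclodextrin. The time between injection and kidney collection is not given for these libraries in the sources used here. The comparison of the groups asks which renal transcripts differ after acute SIK inhibition, and here it is read for the transcripts of the organelle itself.

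The mitochondrial genome is a small circular DNA without introns that is present in many copies per cell. It is transcribed from both strands into long precursor RNAs, which are cut at the tRNAs that lie between the coding genes, and its rRNAs and tRNAs serve to translate its own mRNAs. The encoded proteins are core subunits of respiratory complexes I, III, IV and V, whose other subunits are encoded in the nucleus and imported. Kidney tubule cells, above all those of the proximal tubule, are rich in mitochondria because solute reabsorption consumes much ATP. In bulk kidney RNA, a change in the number of cells of a type and a change in RNA per cell cannot be told apart.

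Libraries held between 19244227 and 19771802 expected counts, the RSEM estimate of reads per gene. Defining markers of the labelled tissue were present: all 9 proximal tubule markers were detected, with a summed level between 24897 and 35086 CPM (expected counts scaled to library size with TMM factors, the trimmed mean of M values) over the 12 mice. Vehicle-treated mouse 3 stood apart in how its mitochondrial reads were divided between the members and their nuclear copies, described next, and values without it are given beside the results that it changes. TMM factors were 0.898, 0.889, 0.915, 1.04, 1.03 and 1.01 in SK-124-treated mice 1 to 6, and between 0.991 and 1.08 in vehicle-treated mice.

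Reads that match mitochondrial transcripts were in part assigned to nuclear pseudogenes, and the origin of these reads was not tested. Nuclear DNA holds inserted copies of mitochondrial sequence, and on chromosome 1 a series of unprocessed pseudogenes copies a stretch of the mitochondrial genome almost base for base. Transcripts of 6 of these pseudogenes matched a member over their length and averaged more than 1000 counts per mouse. *Gm28661* (ENSMUSG00000102070.1, chr1:24614885-24615565, minus strand) was identical to *mt-Co2* over 681 bases, *Gm10925* (ENSMUSG00000100862.1, chr1:24613974-24614651, minus strand) to *mt-Atp6* over 678 bases, *Gm28437* (ENSMUSG00000101111.1, chr1:24613189-24613971, minus strand) to *mt-Co3* over 783 bases and *Gm10222* (ENSMUSG00000067736.2, chr1:24612407-24612700, minus strand) to *mt-Nd4l* over 294 bases. Only the last 1 to 3 bases of these mitochondrial transcripts lay outside the copy. The other 2 copies differed from the member by a single base each: *Gm29216* (ENSMUSG00000101249.1, chr1:24615706-24616197, minus strand) by A1066T over 483 bases of *mt-Co1*, and *Gm28438* (ENSMUSG00000101939.1, chr1:24612775-24613119, minus strand) by T3C over 345 bases of *mt-Nd3*, where the member's base stands first and positions count from the 5′ end of the member's transcript. The sequences around the places where member and copy can be told apart are shown because outside them the matched stretches are identical. In *mt-Co1* the first 1062 bases lie before the match and belong to the member alone. In *mt-Nd3* the last 3 bases lie beyond the end of the copy and are not shown. The sequences shown are from transcripts of GENCODE M21 (GRCm38), written 5′ to 3′. The differing base, or in *mt-Co2* and *mt-Co3* the bases of the member that lie beyond the end of the copy, are in capitals. The windows lie at chrM:6368-6418 (plus strand) and chr1:24616160-24616197 (minus strand) for *mt-Co1* and *Gm29216*, at chrM:9459-9486 and chr1:24613092-24613119 for *mt-Nd3* and *Gm28438*, at chrM:7657-7696 and chr1:24614885-24614921 for *mt-Co2* and *Gm28661*, and at chrM:9351-9390 and chr1:24613189-24613227 for *mt-Co3* and *Gm28437*. The match of *Gm29216* starts at position 1063 of *mt-Co1*, and the letters shown before it lie outside the match.
mt-Co1: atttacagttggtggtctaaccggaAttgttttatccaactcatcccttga
Gm29216: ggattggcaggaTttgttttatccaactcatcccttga
mt-Nd3: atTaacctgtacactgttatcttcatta
Gm28438: atCaacctgtacactgttatcttcatta
mt-Co2: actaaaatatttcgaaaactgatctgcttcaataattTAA
Gm28661: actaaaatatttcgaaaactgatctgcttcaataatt
mt-Co3: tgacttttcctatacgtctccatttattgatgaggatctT
Gm28437: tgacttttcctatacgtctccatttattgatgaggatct

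In all 4 pairs shown except *mt-Co1*, most of the shared counts went to the copy. Of the pair with *mt-Co2*, *Gm28661* held between 789528 and 993612 expected counts per mouse, against 3958 to 8206 for *mt-Co2*. Its percentage of the counts of the pair was 99.3 ± 0.116% in vehicle-treated and 99.3 ± 0.184% in SK-124-treated mice (SD, n = 6). For *mt-Nd3* and *Gm28438* the percentage given to the copy was 97.7 ± 0.620% in vehicle-treated and 97.9 ± 0.528% in SK-124-treated mice, for *mt-Co3* and *Gm28437* 97.6 ± 0.458% in vehicle-treated and 97.2 ± 0.930% in SK-124-treated mice, for *mt-Nd4l* and *Gm10222* 93.7 ± 1.21% in vehicle-treated and 93.3 ± 0.801% in SK-124-treated mice, and for *mt-Atp6* and *Gm10925* 88.4 ± 1.77% in vehicle-treated and 87.6 ± 0.855% in SK-124-treated mice. The copy of *mt-Co1* covers only bases 1063 to 1545 of that transcript, and *Gm29216* took 11.8 ± 2.24% in vehicle-treated and 11.3 ± 0.892% in SK-124-treated mice. *Gm28439*, which is identical to the first 876 bases of *mt-Nd4*, held between 9.46 and 47.1 counts, so that *mt-Nd4* kept nearly all of its reads. The groups overlapped for all 6 pairs.

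The 2 estimates that RSEM gives, the expected count (maximum likelihood) and the posterior mean count (from sampling), did not divide the reads in the same way. For *mt-Co3* the posterior mean was between 7.64 and 17.2 times the expected count, which left *Gm28437* with 70.0 ± 1.82% in vehicle-treated and 69.6 ± 1.23% in SK-124-treated mice. For *mt-Co2* the ratio was between 4.17 and 7.34, and the posterior standard deviation reached 53.0% of the posterior mean. For *mt-Nd1*, *mt-Nd2*, *mt-Nd4*, *mt-Nd5*, *mt-Cytb*, *mt-Nd6*, *mt-Atp8* and the rRNA genes, which have no such copy at high counts, both estimates were equal to within rounding. Levels of *mt-Co2*, *mt-Co3*, *mt-Atp6*, *mt-Nd3* and *mt-Nd4l* on their own are therefore uncertain, and for these genes and for *mt-Co1* the sum of member and copy is given below.

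**Figure D1:**
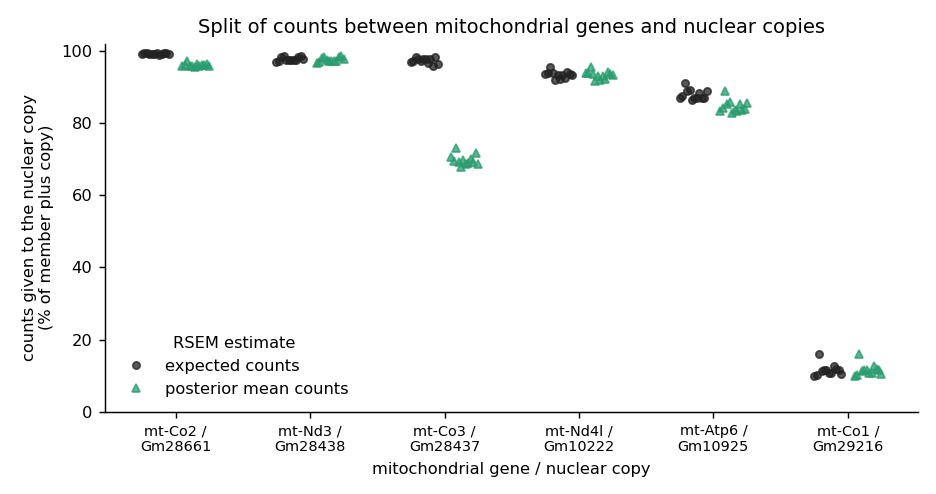
Percentage of the counts of each pair (mitochondrial gene plus nuclear copy) that RSEM gave to the copy, in each of the 12 mice, from expected counts (circles) and from posterior mean counts (triangles). Gm28437 takes 96.0 to 98.4% of its pair by the first estimate and 67.8 to 73.2% by the second.

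The 37 genes took between 25.8 and 32.4% of every library. Their share of expected counts was 28.4, 28.8, 27.7, 29.9, 28.6 and 27.8% in vehicle-treated mice 1 to 6 and 32.4, 32.4, 29.4, 26.7, 25.8 and 27.6% in SK-124-treated mice 1 to 6. The means were 28.5 ± 0.782% and 29.1 ± 2.85% (SD, n = 6 each), with overlapping groups: 2 SK-124-treated mice lay above and 3 below every vehicle-treated mouse. With the nuclear copies counted as mitochondrial, the shares were 40.1, 40.7, 41.3, 42.5, 40.5 and 39.3% in vehicle-treated and 46.0, 44.97, 43.4, 39.1, 37.2 and 39.3% in SK-124-treated mice. The means were then 40.7 ± 1.10% and 41.7 ± 3.59%, and 3 SK-124-treated mice lay above and 2 below the vehicle range. The difference between the group means was smaller than the spread within the SK-124 group on either count, and the SD was larger in the SK-124 group, a difference that was not tested. The copies took 29.1 to 32.8% of mitochondrial plus copy counts in vehicle-treated mice, where mouse 3 had the highest value and the next mouse had 29.6%, and 27.9 to 32.4% in SK-124-treated mice.

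**Figure D2:**
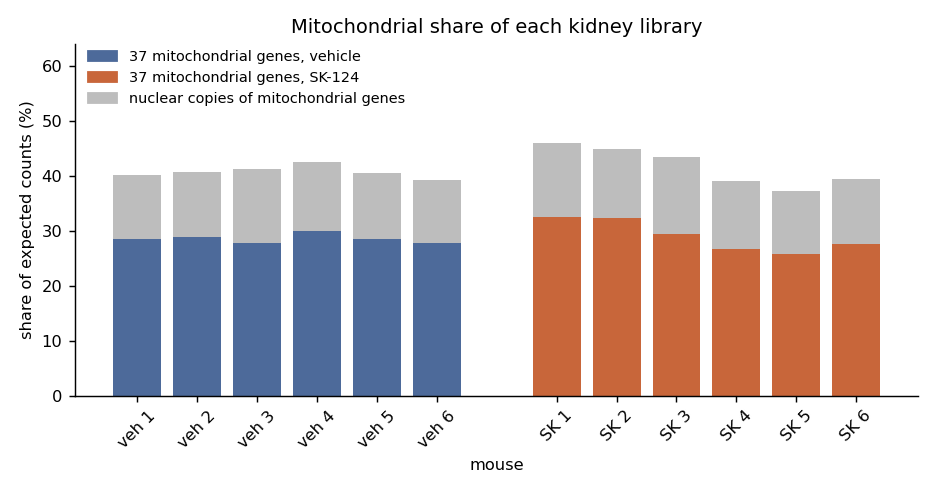
Share of expected counts (%) in each of the 12 mice, with the 37 mitochondrial genes as the lower part of each bar (vehicle, SK-124) and the nuclear copies as the grey upper part. Vehicle-treated mice lie between 27.7 and 29.9% for the members alone, and SK-124-treated mice between 25.8 and 32.4%.

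The same shares can be divided by respiratory complex, which restates them and adds no further support. With copies added, the 7 complex I genes took 16.4 ± 0.666% of vehicle and 16.8 ± 1.87% of SK-124 libraries (SD, n = 6 each). The single complex III gene took 5.29 ± 0.257% and 5.21 ± 0.536%, the 3 complex IV genes 14.0 ± 0.650% and 14.5 ± 1.06%, and the 2 complex V genes 4.64 ± 0.257% and 4.76 ± 0.473%. Groups overlapped for all 4 complexes. As a share of TPM, which divides counts by effective length, the 37 genes reached 32.9 to 39.6% in vehicle-treated and 34.3 to 44.3% in SK-124-treated mice, with means of 37.3 ± 2.37% and 38.0 ± 3.91% (SD, n = 6 each), so that the SDs lay closer together than those of expected counts. A single gene, *mt-Atp8*, made up 9.51 to 18.4% of all TPM, since only 26.0 to 31.5 of its 204 bases counted as effective length, and a small shift in fragment length moves its TPM strongly.

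All 22 tRNA genes were listed at 0 in every mouse. They are between 59 and 75 bases long, and their effective length was 0 in every file, which means that fragments of the sequenced size cannot come from them. The 0 therefore says nothing about tRNA abundance. Of the other 15 members, every one had counts in all 12 mice and passed the filter on low counts.

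Levels per length were set against *mt-Cytb*, the complex III mRNA, in the same mouse, with copies added and counts divided by effective length. The mRNAs *mt-Nd1*, *mt-Nd2*, *mt-Co1* and *mt-Co3* lay just below that level, with medians over the 12 mice of 0.952, 0.950, 0.897 and 0.919 and overlapping ranges, and *mt-Nd4* was at 0.712, with its highest mouse at 0.762. On the same scale *mt-Co2* and *mt-Atp6* were at 1.64 and 1.61, with overlapping ranges and no mouse below 1.45, and *mt-Atp8*, with the least certain length, was at 2.60. Lower values were those of *mt-Nd4l* (0.470), *mt-Nd3* (0.341) and *mt-Nd5* (0.320), whose ranges over the mice overlapped between neighbours in this order. The rRNAs *mt-Rnr1* and *mt-Rnr2*, which are the most abundant RNAs of the organelle in the cell, were at 0.0365 and 0.0386 here, in libraries that the labels describe as made from isolated mRNA. Their ranges, 0.0292 to 0.0443 and 0.0302 to 0.0434, also overlapped. At the bottom stood *mt-Nd6* with 8.08e-05, the only mRNA encoded on the minus strand.

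**Figure D3:**
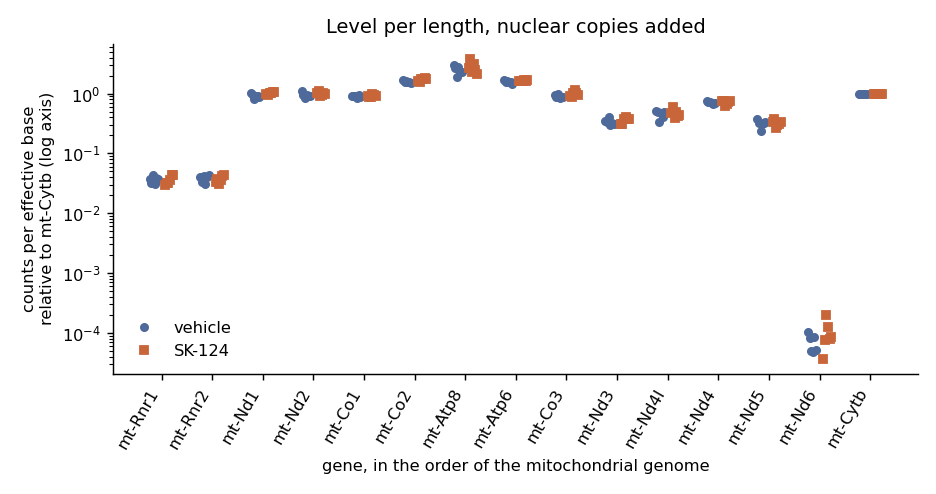
Expected counts per effective base relative to mt-Cytb in the same mouse (log axis), nuclear copies added, for the 15 members with counts in their order along the mitochondrial genome, with 1 point per mouse (vehicle circles, SK-124 squares). mt-Nd1, mt-Nd2, mt-Co1 and mt-Co3 have medians of 0.897 to 0.952, and the mRNAs other than mt-Nd6 lie between 0.241 and 3.78. The rRNAs lie near 0.0365, and mt-Nd6 at 3.72e-05 to 0.000197.

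After TMM scaling, no member passed the test between the groups. With edgeR's quasi-likelihood test and Benjamini-Hochberg adjustment over all 14159 genes (FDR), 0 of the 15 members with counts had an FDR under 0.05, where 24.4% of all genes tested did. At an unadjusted p under 0.05 there were 3 of the 15 members (*mt-Nd1*, *mt-Atp6* and *mt-Co3*), against 4984 of all 14159 genes. DESeq2 called 1, *mt-Nd1* (20.5% of the 17431 genes with an adjusted p). All 15 log2 fold changes were positive, between 0.046 and 0.60 with a median of 0.14, against a median of -0.0051 over all genes tested, but with libraries scaled by their totals alone 7 of the 15 were negative, the median was 0.019 and 0 passed, where 27.1% of all genes did and 0 members had an unadjusted p under 0.05. That scaling moved the median of all genes to -0.12. In all 15 members the groups overlapped, both as deposited and with copies added. From deposited counts of *mt-Nd2*, *mt-Co1*, *mt-Atp6* and *mt-Cytb*, the 3 SK-124-treated mice above the vehicle range were in each case mice 1 to 3. Those mice had the lowest TMM factors of the 12, at 0.898, 0.889 and 0.915. With copies added, 0 of 15 had an FDR under 0.05 (24.4% of 14150 genes tested). An unadjusted p under 0.05 was found for 2 of the 15 and for 4983 of the genes tested. DESeq2 then called 2 (*mt-Nd1* and *mt-Co3*, where 20.6% of all genes were called).

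Complex I, the NADH dehydrogenase that feeds electrons into the chain, has 7 of its subunits encoded here. *mt-Nd1* (ENSMUSG00000064341.1, chrM:2751-3707, plus strand) had 33708 at the lowest, 36975 at the median and 39741 at the highest in vehicle-treated mice, against 37187, 44070 and 50648 in SK-124-treated mice, in CPM. In 4 of 6 SK-124-treated mice the value exceeded every vehicle-treated mouse. Its log2 fold change was 0.25 ± 0.10 (SE), with an FDR of 0.0703 by edgeR and an adjusted p of 0.0120 by DESeq2. Leaving out SK-124-treated mouse 4 or mouse 5 brought the edgeR FDR to 0.0355 and 0.0325. These were the only 2 of the 12 fits without 1 mouse that called it. Without SK-124-treated mouse 2 the FDR was 0.117, and with library totals it was 0.183. As a part of all mitochondrial counts (copies added), *mt-Nd1* was at 9.41 ± 0.357% with vehicle and 10.1 ± 0.489% with SK-124 (SD, n = 6 each). Again 4 SK-124-treated mice lay above the vehicle range, and this part, which does not depend on the scaling of libraries, was given no test.

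The neighbouring *mt-Nd2* (ENSMUSG00000064345.1, chrM:3914-4951, plus strand) had CPM values of 39098 at the lowest, 41707 at the median and 46940 at the highest in vehicle-treated mice and of 38985, 45614 and 61332 in SK-124-treated mice, so that the SK-124 group reached both above and below the vehicle group. The log2 fold change was 0.19 ± 0.12 (SE) with an FDR of 0.274. For *mt-Nd4* (ENSMUSG00000064363.1, chrM:10167-11544, plus strand), CPM was 41590 at the lowest, 44748 at the median and 49804 at the highest in vehicle-treated mice and 38682, 46472 and 59930 in SK-124-treated mice. Here 2 SK-124-treated mice lay above and 2 below the vehicle range, and the log2 fold change was 0.10 ± 0.12 (SE, FDR = 0.582). *mt-Nd5* (ENSMUSG00000064367.1, chrM:11742-13565, plus strand) is the longest coding gene of the genome and stood at 23062 at the lowest, 27992 at the median and 30221 at the highest in vehicle-treated mice and at 23732, 27807 and 40348 in SK-124-treated mice. Its medians were nearly level, the 2 highest mice had received SK-124, and the log2 fold change was 0.12 ± 0.13 (SE, FDR = 0.539).

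The 2 shortest complex I genes depend on their nuclear copies. With copy counts added, *mt-Nd3* (ENSMUSG00000064360.1, chrM:9459-9806, plus strand) had CPM values of 2402 at the lowest, 2594 at the median and 3442 at the highest in vehicle-treated mice and of 2568, 2901 and 3691 in SK-124-treated mice, with a log2 fold change of 0.16 ± 0.10 (SE) and an FDR of 0.258. Vehicle-treated mouse 3 had the highest of the vehicle values, and without it the FDR was 0.0355 at a log2 fold change of 0.24. This was the only 1 of the 12 fits without 1 mouse that called the sum. From the deposited counts of *mt-Nd3* alone, which ranged from 33.4 to 89.8 CPM, the log2 fold change was 0.061 ± 0.21 (SE, FDR = 0.869) and turned negative without vehicle-treated mouse 4 or SK-124-treated mouse 1 or 3. *mt-Nd4l* (ENSMUSG00000065947.3, chrM:9877-10173, plus strand), which overlaps *mt-Nd4* by 7 bases and is joined with it in 1 mRNA, had 1890 at the lowest, 2560 at the median and 2818 at the highest in vehicle-treated mice and 1930, 2410 and 3930 in SK-124-treated mice in CPM with its copy added. In 2 SK-124-treated mice the value was above the vehicle range and in none below it, with a log2 fold change of 0.14 ± 0.15 (SE, FDR = 0.555), against 0.24 ± 0.20 (SE, FDR = 0.436) from the deposited counts.

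*mt-Nd6* (ENSMUSG00000064368.1, chrM:13552-14070, minus strand) is read from the other strand than the remaining coding genes and was nearly absent from these libraries. They were made from isolated mRNA, so that the low counts do not give the abundance of the transcript in the kidney. Expected counts were 33, 29, 18, 18, 30 and 18 in vehicle-treated mice 1 to 6 and 14, 27, 73, 39, 23 and 27 in SK-124-treated mice 1 to 6. Most mice of both groups lay in the same range, and the count of 73 in SK-124-treated mouse 3 stood alone. The log2 fold change of 0.60 ± 0.32 (SE) had an FDR of 0.198, and without that mouse it was 0.20. The gene overlaps *mt-Nd5* by 14 bases on the opposite strand, and whether counting used strand is not given in the sources used here, so reads of *mt-Nd6* and reads antisense to it cannot be told apart.

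Complex III, which passes electrons to cytochrome c, has *mt-Cytb* (ENSMUSG00000064370.1, chrM:14145-15288, plus strand) as its only subunit encoded in the organelle. Its CPM was 46376 at the lowest, 50140 at the median and 55361 at the highest in vehicle-treated mice and 44209, 54685 and 64458 in SK-124-treated mice. In 3 SK-124-treated mice the value was above all vehicle values and in 1 below them, and the log2 fold change of 0.10 ± 0.11 (SE) did not pass the test (FDR = 0.557). The 3 were mice 1 to 3, with 64458, 62991 and 61842 CPM, while mice 4 to 6 had 46658, 44209 and 47528 CPM. The median of the SK-124 group lies between these values and is near no mouse. As a part of all mitochondrial counts *mt-Cytb* was at 12.99 ± 0.439% with vehicle and 12.5 ± 0.305% with SK-124 (SD, n = 6 each), with overlapping groups.

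Complex IV, cytochrome c oxidase, contains the products of *mt-Co1*, *mt-Co2* and *mt-Co3* as its catalytic core. The member with the most counts was *mt-Co1* (ENSMUSG00000064351.1, chrM:5328-6872, plus strand), which with its copy had CPM values of 59322 at the lowest, 65277 at the median and 72300 at the highest in vehicle-treated mice and of 60040, 71037 and 82400 in SK-124-treated mice. This gave a log2 fold change of 0.13 ± 0.10 (SE, FDR = 0.386) and was 0.14 ± 0.10 (SE, FDR = 0.344) without the copy. For *mt-Co2* (ENSMUSG00000064354.1, chrM:7013-7696, plus strand) the sum with its copies had 37739 at the lowest, 40713 at the median and 45894 at the highest in vehicle-treated mice and 40237, 45916 and 56000 in SK-124-treated mice in CPM, whereas the member alone had 301 ± 31.3 and 319 ± 99.6 CPM (SD, n = 6 each). The sum had a log2 fold change of 0.19 ± 0.10 (SE, FDR = 0.184), and the member alone 0.085 ± 0.15 (SE, FDR = 0.741), a value that was negative without SK-124-treated mouse 2.

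*mt-Co3* (ENSMUSG00000064358.1, chrM:8607-9390, plus strand) is a gene whose value rests on the division of reads. The deposited CPM was 559 at the lowest, 703 at the median and 786 at the highest in vehicle-treated mice and 460.0, 888 and 1299 in SK-124-treated mice, a log2 fold change of 0.40 ± 0.17 (SE, FDR = 0.110). SK-124-treated mouse 5 had the lowest value of all 12 mice and mouse 4 the highest, and without mouse 5 the log2 fold change was 0.53 with an FDR of 0.00513. No other fit without 1 mouse called the deposited counts of this gene. With *Gm28437* added, CPM was 26277 at the lowest, 27065 at the median and 32911 at the highest in vehicle-treated mice and 27784, 32944 and 38648 in SK-124-treated mice, and mice 4 and 5 no longer stood out. The log2 fold change of the sum was 0.22 ± 0.10 (SE) with an FDR of 0.115 by edgeR and an adjusted p of 0.0370 by DESeq2. Without vehicle-treated mouse 3, whose value was the highest of the vehicle group, the edgeR FDR of the sum was 0.0447. No other fit without 1 mouse called the sum.

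Complex V, the ATP synthase, takes 2 subunits of its membrane part from *mt-Atp8* and *mt-Atp6*. These genes share 43 bases of the same strand at chrM:7927-7969. The expected and posterior mean counts of *mt-Atp8* were equal in every mouse, with a posterior standard deviation of 0%, so that its counts were not divided with *mt-Atp6*. The overlap is shown in capitals, from GENCODE M21 transcripts on the plus strand at chrM:7897-7999, with the start codon of *mt-Atp6* as its first letters and the stop codon of *mt-Atp8* as its last.
mt-Atp8/mt-Atp6: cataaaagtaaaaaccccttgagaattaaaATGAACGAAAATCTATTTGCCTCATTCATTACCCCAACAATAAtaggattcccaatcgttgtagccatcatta

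*mt-Atp8* (ENSMUSG00000064356.3, chrM:7766-7969, plus strand) had CPM values of 3031 at the lowest, 4039 at the median and 5067 at the highest in vehicle-treated mice and of 3240, 4372 and 7380 in SK-124-treated mice, with a log2 fold change of 0.23 ± 0.18 (SE, FDR = 0.393). SK-124-treated mouse 2 had the highest value, and without it the log2 fold change was 0.060. *mt-Atp6* (ENSMUSG00000064357.1, chrM:7927-8607, plus strand) had 4056 at the lowest, 4875 at the median and 5266 at the highest in vehicle-treated mice and 4579, 5410 and 6840 in SK-124-treated mice in CPM as deposited, with a log2 fold change of 0.26 ± 0.11 (SE, FDR = 0.0886). The FDR was 0.0464 without SK-124-treated mouse 6, the only 1 of the 12 fits without 1 mouse that called it. With *Gm10925* added, the values were 35658 at the lowest, 40036 at the median and 46039 at the highest in vehicle-treated mice and 36584, 45723 and 53008 in SK-124-treated mice, and the log2 fold change was 0.15 ± 0.11 (SE, FDR = 0.342). The unadjusted call of *mt-Atp6* was thus not present in the sum, for which the unadjusted p was 0.175.

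The rRNAs of the mitochondrial ribosome had the smallest log2 fold changes of the deposited counts, and both turned negative with library totals. *mt-Rnr1* (ENSMUSG00000064337.1, chrM:70-1024, plus strand), the small-subunit rRNA, had CPM values of 1314 at the lowest, 1416 at the median and 1888 at the highest in vehicle-treated mice and of 1344, 1557 and 1682 in SK-124-treated mice. No SK-124-treated mouse lay outside the vehicle range, but its upper end was set by vehicle-treated mouse 3. The next vehicle value was 1507, and SK-124-treated mice 2, 3, 5 and 6 lay above that, at 1630, 1584, 1530 and 1682. Fits without any 1 mouse gave log2 fold changes of 0.025 to 0.14. *mt-Rnr2* (ENSMUSG00000064339.1, chrM:1094-2675, plus strand), the large-subunit rRNA, had 2443 at the lowest, 2810 at the median and 3397 at the highest in vehicle-treated mice and 2484, 2892 and 3424 in SK-124-treated mice. Their log2 fold changes were 0.058 ± 0.084 (SE) and 0.046 ± 0.091 (SE), with FDRs of 0.669 and 0.763. Together they made up 0.449 ± 0.0533% of expected counts with vehicle and 0.429 ± 0.0309% with SK-124 (SD, n = 6 each), and the ratio of *mt-Rnr2* to *mt-Rnr1* counts was between 1.77 and 2.08 and between 1.74 and 2.10.

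**Figure D4:**
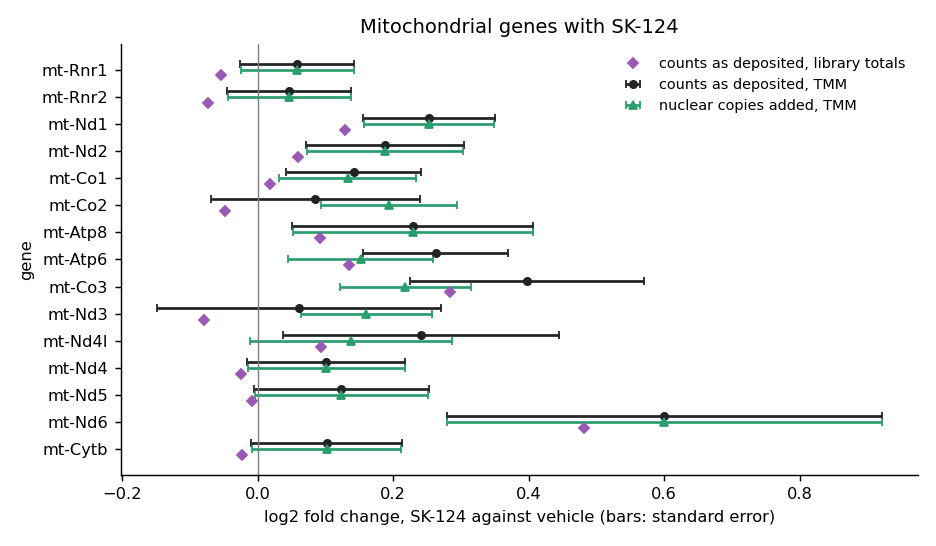
Log2 fold change of the 15 members with counts, SK-124 against vehicle (6 mice each), from deposited counts with TMM scaling (circles) and with nuclear copies added (triangles), with standard errors, and from deposited counts scaled by library totals alone (diamonds). The TMM values are positive for all 15 genes, and 7 of the diamonds lie below 0.

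The nuclear genes of the respiratory chain were compared next, which include 4 genes of complex II, a complex with no subunit encoded in the mitochondrial genome. Of 82 nuclear respiratory chain genes, 81 were tested, 4 rose with SK-124 and 0 fell, which is 4.94% against 24.4% of all genes tested. An unadjusted p under 0.05 was found for 17 of the 81 and for 4984 of all 14159 genes. With DESeq2 11 rose, where 10.1% of all genes did. The genes that rose were *Uqcrc2* (a core protein of complex III), *Sdha* (the flavoprotein of complex II), *Ndufv1* (the subunit of complex I that binds NADH) and *Atp5a1* (the alpha subunit of complex V). Their log2 fold changes were 0.14 ± 0.047 (SE), 0.14 ± 0.049 (SE), 0.14 ± 0.048 (SE) and 0.13 ± 0.047 (SE), with FDRs of 0.0322, 0.0416, 0.0423 and 0.0496. *Uqcrc2* was at 225 ± 8.75 CPM with vehicle and 249 ± 9.28 CPM with SK-124, and *Atp5a1* at 949 ± 21.9 and 1039 ± 26.6 CPM (SD, n = 6 each), neither with overlap between the groups. In the 12 fits without 1 mouse, the calls of *Uqcrc2*, *Sdha*, *Ndufv1* and *Atp5a1* were lost in 6, 10, 8 and 10. All 81 log2 fold changes were positive under TMM, with a median of 0.10, where the median of all genes tested was -0.0051. Under library totals the 2 medians were -0.0023 and -0.12, and 0 of the 81 genes passed, where 27.1% of all genes did. The count also depended on single mice: it was 35 without vehicle-treated mouse 3, where 13.1% of all genes rose, against 9.25 to 10.2% without any other mouse and 10.8% with all mice. It was 8 without SK-124-treated mouse 2, 1 without vehicle-treated mouse 2 or SK-124-treated mouse 4 or 5, and 0 without vehicle-treated mouse 4, 5 or 6 or SK-124-treated mouse 3 or 6.

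A ratio of the 2 genomes within each library needs no scaling between libraries. For every count of a nuclear respiratory chain gene there were 31.6, 34.2, 30.2, 36.4, 33.6 and 31.6 mitochondrial counts (copies added) in vehicle-treated mice 1 to 6, and 42.5, 43.5, 34.0, 28.9, 26.7 and 29.0 in SK-124-treated mice 1 to 6. Vehicle-treated mice lay at 32.9 ± 2.24 and SK-124-treated mice at 34.1 ± 7.28 (SD, n = 6 each). The groups overlapped, with 2 SK-124-treated mice above and 3 below the vehicle range, and the mice above it were those with the highest mitochondrial shares.

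The proteins that transcribe, process, translate and copy the mitochondrial genome are made from nuclear genes. Of 76 such genes and their regulators, 74 were tested; 3 rose and 6 fell (12.2%, against 24.4% of all genes tested, of which 10.8% rose and 13.5% fell), and the median log2 fold change was 0.010. The 3 largest log2 fold changes in size were those of regulators of transcription in the nucleus. *Ppargc1a* (PGC-1 alpha), a coactivator that drives the making of mitochondria, rose from 54.4 at the lowest, 75.4 at the median and 82.2 at the highest in vehicle-treated mice to 101.95, 118 and 128 in SK-124-treated mice, in CPM. The groups did not overlap, and the log2 fold change was 0.66 ± 0.085 (SE) with an FDR of 2.09e-05. Vehicle-treated mouse 3 had the lowest value by some distance, and fits without any 1 mouse gave log2 fold changes of 0.58 to 0.69.

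Among the other regulators listed, 3 changed in the opposite direction. *Ppargc1b* (PGC-1 beta), the close relative of PGC-1 alpha, fell from 7.197 at the lowest, 7.88 at the median and 8.29 at the highest in vehicle-treated mice to 3.95, 4.19 and 5.31 in SK-124-treated mice, a log2 fold change of -0.84 ± 0.088 (SE, FDR = 1.82e-06). *Esrra*, the nuclear receptor ERR alpha through which both coactivators act on genes of oxidative metabolism, fell from 50.1 at the lowest, 54.8 at the median and 61.7 at the highest in vehicle-treated mice to 37.2, 39.0 and 42.7 in SK-124-treated mice, a log2 fold change of -0.49 ± 0.060 (SE, FDR = 1.12e-05). *Perm1*, a regulator named for its induction by PGC-1 and ERR in muscle, fell from 4.59 at the lowest, 6.27 at the median and 8.83 at the highest in vehicle-treated mice to 2.08, 3.09 and 4.01 in SK-124-treated mice, a log2 fold change of -1.07 ± 0.17 (SE, FDR = 0.000200). All values are CPM, and for these 3 genes every SK-124-treated mouse lay below every vehicle-treated mouse. The rest of the listed regulators did not pass the test. Log2 fold changes were positive for *Pprc1* (0.14, FDR = 0.253), *Esrrg* (0.17, FDR = 0.152) and *Gabpb1* (0.13, FDR = 0.288). They were negative for *Nrf1* (-0.14, FDR = 0.172) and *Gabpa* (-0.041, FDR = 0.769).

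Factors that act inside the organelle followed. *Polg2*, the accessory subunit of the polymerase that copies mitochondrial DNA, rose with SK-124, at 2.37 ± 0.218 against 3.37 ± 0.224 CPM (SD, n = 6 each), which gave a log2 fold change of 0.51 ± 0.11 (SE, FDR = 0.00171). *Mrm1* and *Mrm2*, which methylate the large rRNA *mt-Rnr2*, fell with log2 fold changes of -0.41 ± 0.11 (SE) and -0.33 ± 0.12 (SE, FDR = 0.00813 and 0.0450). Among translation factors, the elongation factor *Gfm1* rose by 0.15 and the initiation factor *Mtif3* fell by 0.18 on the log2 scale (FDR = 0.0368 and 0.0364). The calls of *Mrm2*, *Gfm1* and *Mtif3* were lost without 9, 8 and 6 of the 12 mice when fits were made without 1 mouse. The RNA polymerase of the organelle, *Polrmt*, its transcription factor *Tfam*, which also packs the DNA, and *Lrpprc*, which stabilises mitochondrial mRNAs, had log2 fold changes of -0.066 ± 0.061 (SE), 0.047 ± 0.066 (SE) and 0.077 ± 0.067 (SE) and did not pass the test (FDR = 0.479, 0.664 and 0.454).

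Proteins of the mitochondrial ribosome, all made from nuclear genes, were counted in the same way. Of 78 genes 5 rose and 1 fell, or 7.69% against 24.4%, with a median log2 fold change of 0.025. *Mrps6* rose with SK-124, at 27.4 ± 2.60 against 39.2 ± 6.59 CPM (SD, n = 6 each). This gave a log2 fold change of 0.52 ± 0.10 (SE, FDR = 0.000850), and this call held without any single mouse. *Mrpl53* (0.28 ± 0.085 (SE), FDR = 0.0230) and *Mrps18a* (0.18 ± 0.061 (SE), FDR = 0.0425) rose less, and *Mrpl47* (-0.20 ± 0.071 (SE), FDR = 0.0488) was the single gene that fell. In the 12 fits without 1 mouse the call of *Mrpl53* was lost in 4, that of *Mrps18a* in 9 and that of *Mrpl47* in 9, and *Mrpl47* was also not called with DESeq2 (adjusted p = 0.111), RLE scaling, scaling without the members, no filter or robust dispersion. Without vehicle-treated mouse 3 the number that rose was 12 of 78, where 13.1% of all genes rose. Without vehicle-treated mouse 1 or SK-124-treated mouse 3 it was 2, where 9.81 and 9.6% of all genes rose.

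**Figure D5:**
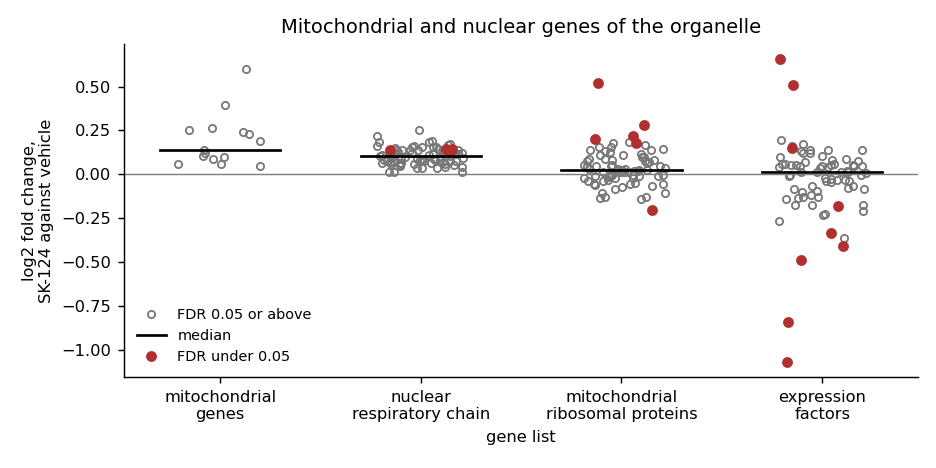
Log2 fold change (SK-124 against vehicle, TMM scaling, edgeR) of each tested gene among 15 mitochondrial genes, 81 nuclear respiratory chain genes, 78 mitochondrial ribosomal protein genes and 74 expression factors, with filled points for an FDR under 0.05 and bars for medians. The bars lie at 0.14, 0.10, 0.025 and 0.010. When libraries are scaled by totals alone, these medians drop to 0.019, -0.0023, -0.084 and -0.10, and that of all genes tested drops from -0.0051 to -0.12.

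Mitochondrial RNA per cell differs between kidney cell types, so the markers of those types are given beside these results. Summed CPM of the 9 proximal tubule markers was 24897 to 34853 with vehicle and 26720 to 35086 with SK-124, and 0 of the 9 passed the test. The highest vehicle sum was that of mouse 3, and without it the vehicle range was 24897 to 28083, with 5 of 6 SK-124-treated mice above it and 0 below. This sum is weighted towards *Kap*, 1 of the 9 markers. *Kap* alone took 1.95 ± 0.313% of expected counts with vehicle and 2.07 ± 0.251% with SK-124 (SD, n = 6 each). Of the 9 log2 fold changes only 4 were positive, and the median was -0.024. The 4 thick ascending limb markers summed to 2306 to 3256 and 2814 to 3477, with 4 of 6 SK-124-treated mice above the vehicle range and 1 gene that rose. The 4 stromal markers summed to 98.8 to 155 and 63.1 to 128, with 5 of 6 SK-124-treated mice below the vehicle range and 1 gene that fell. The 4 principal cell markers of the collecting duct summed to 159.5 to 239 and 196 to 333, with 5 of 6 SK-124-treated mice above the vehicle range, 1 gene that rose and 1 that fell. Of the other lists, 2 of 4 intercalated cell markers rose and 1 fell, 2 of 5 endothelial markers fell and 1 of 4 podocyte markers rose, where 24.4% of all genes tested passed, and 0 of the tested distal convoluted tubule, immune, red blood cell, adipocyte, adrenal and nuclear RNA markers did. No defining marker of a kidney cell type was at 0 in every mouse, and among the adrenal markers *Hsd3b6* was. The part of cell composition in the values of the mitochondrial genes was not tested.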

How the data were processed

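Whole-kidney RNA of 12 mice was sequenced on a BGISEQ500 instrument after isolation of mRNA. Per the labels, the authors processed reads with FastQC, STAR 2.7.2b and RSEM 1.3.0 on mm10 and used DESeq2; the annotation release and the use of strand are not given in the sources used here. The deposited RSEM tables hold expected counts (estimated counts per gene, fractional where reads match several genes) and the authors' TPM, scaled to effective length and to the same sum in each library, for 55401 genes, of which 54349 matched GENCODE M21 with their version. The deposited FPKM of the authors (scaled to depth and length) were not used. The members and the gene lists were chosen with earlier results of these data known.

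Expected counts were rounded, scaled with TMM, filtered with filterByExpr (14159 genes) and fitted by group alone in edgeR, with its quasi-likelihood test. FDR is the Benjamini-Hochberg adjusted p over all genes tested. Copies were annotated pseudogenes whose transcript had a blastn hit of at least 90% identity over at least 50 bases to a member, in the same direction. Their counts were added to the best-matching member in a second fit of 14150 genes. Sums over members were given no test. Named genes are all members, copies that share reads, *Tfam*, *Polrmt*, *Ppargc1a* and *Lrpprc*, and the genes with the largest and smallest log2 fold changes among those called (5 each for expression factors, 2 each for the respiratory chain and ribosomal proteins). Of the listed genes, Mtres1, Gm42418 and AY036118 were not found under these symbols in the gene tables used here. Alternatives were DESeq2, RLE scaling, library totals, scaling without the members, no filter, at least 10 counts in every mouse, robust dispersion, the replicate block, each mouse left out and limma on log2(TPM + 1) or log2(TPM + 0.1); posterior mean counts and copies added together with a second change were chosen after seeing the data. Scripts were tested on simulated data. Labels give 1 library per mouse and no batch, and replicates differed beyond counting noise in all 30 pairs (chi-square divided by its degrees of freedom at least 4.41). Library totals of 19244227 to 19771802 limit mainly *mt-Nd6*. The tools were edgeR 4.0.16, DESeq2 1.42.0 and limma 3.58.1 in R 4.3.3, blastn 2.17.0, and Python 3.11.15 with pandas 2.3.3 and numpy 2.4.6.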

Additional observations from a re-analysis of the deposited data

Results flagged for a closer look

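Single mice far from the rest of their group were looked for with Dixon's test in 108 groups of 6 values, where chance gives about 1 in 20, and 9 were found. Vehicle-treated mouse 3 accounted for 7 of them. In this mouse the nuclear copies took 32.8% of mitochondrial plus copy counts, where the next vehicle-treated mouse had 29.6%. *Gm29216* stood at 11650 CPM (next 7647), *Gm28438* at 3383 CPM (next 2580) and *mt-Nd3* with its copies at 3442 CPM (next 2650). *mt-Rnr1* was highest there at 1888 CPM (next 1507), *mt-Nd4l* lowest at 82.25 CPM (next 157), and *Ppargc1a* lowest at 54.4 CPM (next 74.1). The other 2 were SK-124-treated mice: *mt-Nd6* reached 4.09 CPM in mouse 3 (next 1.93), and *Polrmt* 30.4 CPM in mouse 5 (next 26.5). The flags of vehicle-treated mouse 3 are not all separate observations. *Gm28438* is counted within *mt-Nd3* with its copies, and *Gm28438* and *Gm29216* within the share of the copies. The number found can therefore not be set against the chance rate as if the values were independent.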

How the results depend on the processing

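Counts past an FDR of 0.05 depended on the setting. Over all genes tested, 9.25 to 13.1% were called higher and 11.4 to 14.6% lower in the fits of deposited counts without single mice. Mitochondrial genes called higher were 1 with DESeq2, 2 with copies added in DESeq2 and 0 to 2 without single mice, and a member was called in 2 of 17 alternatives and 6 of 24 fits without a mouse. Nuclear respiratory chain genes called higher were 11 with DESeq2, 0 with library totals, with no filter and with limma at either pseudocount, and 0 to 35 without single mice. Ribosomal protein genes called higher were 1 with library totals, 3 with no filter, 0 with limma and 2 to 12 without single mice. Those called lower were 5 with library totals, 2 with limma, 0 with DESeq2, RLE, nuclear scaling, no filter, the replicate block and robust dispersion, and 0 to 2 without single mice. Expression factors called higher were 1 with limma, and those called lower were 12 with library totals. Log2 fold changes that turned negative with library totals were those of *Gm10222* (-0.0047), *Gm29216* (-0.052), *Lrpprc* (-0.038), *Tfam* (-0.071), *mt-Co2* (-0.049), *mt-Cytb* (-0.023), *mt-Nd3* (-0.079), *mt-Nd4* (-0.024), *mt-Nd5* (-0.0086), *mt-Rnr1* (-0.054) and *mt-Rnr2* (-0.073). For *mt-Cytb*, *mt-Nd4*, *mt-Nd5*, *mt-Rnr1* and *mt-Rnr2* this held with copies added at the same values. With limma on log2(TPM + 1) and log2(TPM + 0.1), where fold changes are on that scale, they were *Atp5a1* (-0.051 at both), *Gfm1* (-0.031 and -0.032), *Uqcrc2* (-0.015), *Gm10222* (-0.032), *Gm10925* (-0.019), *Gm29216* (-0.059), *Lrpprc* (-0.068 and -0.073), *Tfam* (-0.13 and -0.14), *mt-Co1* (-0.020), *mt-Co2* (-0.11), *mt-Cytb* (-0.064), *mt-Nd3* (-0.12), *mt-Nd4* (-0.069), *mt-Nd5* (-0.054), *mt-Rnr1* (-0.085) and *mt-Rnr2* (-0.10). Without single mice the ranges that crossed 0 were -0.0087 to 0.21 for *Gm10222*, -0.0013 to 0.22 for *Gm29216*, -0.067 to 0.19 for *mt-Co2*, -0.063 to 0.19 for *mt-Nd3*, -0.0034 to 0.10 for *mt-Rnr2* and, with copies added, -0.00067 to 0.22 for *mt-Nd4l* and -0.0021 to 0.10 for *mt-Rnr2*. The cause of these changes was not tested. Of 1187 single-gene values, 997 kept direction and side of the threshold, 119 lost and 14 gained a call, and 57 changed sign. The difference in mitochondrial share, 0.51 percentage points with all mice, ranged from -0.16 to 1.16 over the settings. It changed sign without SK-124-treated mouse 1 or 2 (-0.16 in each case) and was 1.16 without SK-124-treated mouse 5. Replicate numbers did not pair the mice (deviations of same-numbered mice correlated at -0.13 to 0.22, over 0.1 in 2 of 6, and not every mouse correlated best with its own number), and with the replicate block 0 members passed, with a smallest FDR of 0.051 for *mt-Atp6*. Depth limits *mt-Nd6* (14 to 73 counts).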
